A study of Mus musculus with 2 samples.

Results

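The 10 genes described here are Cps1, Otc, Ass1, Asl and Arg1, the 5 enzymes of the urea cycle, Gls2, Hal and Sds, which break down amino acids, and Pck1 and G6pc, which turn the carbon left over into glucose. They were taken by their symbols as 10 of the 31053 genes counted in both libraries. Levels were read in hepatocyte-like cells, 477 of 2718 kept cells in the Control library and 1869 of 5443 in the pIVCL library, by library, by zone of the liver lobule and by depth of the cell.

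Droplet single-cell RNA libraries of mixed liver cells from C57BL/6 mice were compared, with 1 library per group. The pIVCL library came from liver 6 weeks after partial ligation of the inferior vena cava, begun at 8 to 10 weeks of age, which obstructs the outflow of blood from the liver. The Control library is labelled as healthy. Its protocol text gives the same age of 8 to 10 weeks and describes the ligation too, so the groups were taken from the genotype labels and titles. The labels name neither a sham operation nor how many animals a library pooled. Hepatocytes were freed by collagenase perfusion, and non-parenchymal cells were isolated by a separate protocol.

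Ammonia released from amino acids is toxic and is made into urea by hepatocytes. Blood enters the lobule at the portal tract and leaves at the central vein, and hepatocytes along this path differ. Urea synthesis, amino acid breakdown and glucose production are known to lie mostly near the portal tract, while a thin layer of hepatocytes at the central vein captures remaining ammonia as glutamine through Glul, the glutamine synthetase. Glucagon and glucocorticoids are known to raise many of the 10 genes, and insulin is known to lower Pck1 and G6pc.

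Levels are given as CPM, the UMIs (distinct molecules) of a gene per 1000000 UMIs summed over the cells named. UMIs count molecules by their 3' ends, so a level is not divided by gene length. With 1 library per group there is no test and no replicate check: differences compare these libraries, not the conditions. The intervals in brackets are exact at 95% and cover counting error only. A gene is called higher or lower here when its ratio is at least 1.5, or at most 1 over 1.5, with an interval that leaves out 1, and each count is read against the share of all genes past that same limit.

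Summed over the class, the hepatocyte-like cells carried the defining markers of hepatocytes in both libraries. Alb stood at 55804 CPM in Control and 47576 CPM in pIVCL and Ttr at 7208 and 8057 CPM. Of all UMIs, the Control library held 24637681 and the pIVCL library 38154000, and the median hepatocyte-like cell held 7025 and 2668 UMIs. The deep cells of the libraries fell into separate clusters, although no gene described here was used for clustering. Of cluster 12, 222 cells were from Control and 4 from pIVCL, and of cluster 3, 4 and 701. Shallow cells of both libraries shared cluster 4 (126 Control and 530 pIVCL cells), cluster 5 (56 and 460) and cluster 14 (52 and 84), and cluster 17, led by cell cycle genes, held 17 and 90. Whether clusters 3 and 12 differ through the animal, the preparation or the ligation cannot be told apart. The libraries shared 13 cell barcodes. Gene positions are those of GENCODE release M21 on GRCm38, and all 10 genes are protein-coding there.

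The 10 genes together took nearly the same part of hepatocyte-like RNA in both libraries, 0.723% of UMIs in Control (52614 UMIs) and 0.726% in pIVCL (130682 UMIs). Their mix differed. Pck1 was the most abundant in Control, with 24.3% of the UMIs of the 10 genes, and made up 16.5% in pIVCL. Ass1 was the most abundant in pIVCL, with 23.0%, against 16.2% in Control. G6pc went from 9.82% to 4.38%.

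Cps1 (chromosome 1, 67123026 to 67231259, plus strand), the mitochondrial enzyme that fixes ammonia as carbamoyl phosphate and starts the cycle, stood at 1207 CPM in Control [1182, 1233] and 1500 CPM in pIVCL, a pIVCL over Control ratio of 1.24 [1.21, 1.27]. Otc (X chromosome, 10252305 to 10321024, plus strand), which joins carbamoyl phosphate to ornithine, stood at 418 and 529 CPM, a ratio of 1.27 [1.22, 1.32]. Both mitochondrial enzymes were thus higher in pIVCL by less than the limit.

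Ass1 (chromosome 2, 31470207 to 31520672, plus strand) joins citrulline to aspartate in the cytosol, and stood at 1171 CPM in Control and 1671 CPM in pIVCL, a ratio of 1.43 [1.39, 1.46]. Asl (chromosome 5, 130011258 to 130029247, minus strand), which splits the product into arginine and fumarate, was the least abundant of the 5, at 290 and 274 CPM (ratio 0.942 [0.895, 0.992]). Arg1 (chromosome 10, 24915221 to 24927484, minus strand), the arginase that releases urea, stood at 965 and 874 CPM (ratio 0.906 [0.881, 0.932]). The 3 cytosolic enzymes therefore did not shift in 1 direction.

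Among the amino acid genes, Gls2 (chromosome 10, 128194457 to 128210004, plus strand), the liver glutaminase that feeds ammonia to Cps1, stood at 178 CPM in Control and 316 CPM in pIVCL, a ratio of 1.78 [1.67, 1.89]. Hal (chromosome 10, 93488768 to 93519304, plus strand), which takes the first step of histidine breakdown, stood at 364 and 419 CPM (ratio 1.15 [1.10, 1.21]). Sds (chromosome 5, 120476526 to 120483932, plus strand), the serine dehydratase that makes pyruvate from serine, stood at 173 and 165 CPM (ratio 0.95 [0.890, 1.02]), an interval that includes 1. Gls2 overlaps Spryd4, and Sds overlaps Gm15690 and Plbd2, all on the opposite strand. The sources used here do not say whether counting used strand, so reads of these partners could be among the counts.

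The pair of glucose genes was lower in pIVCL. Pck1 (chromosome 2, 173153048 to 173159273, plus strand), the cytosolic enzyme that makes phosphoenolpyruvate, stood at 1755 CPM in Control and 1197 CPM in pIVCL, a ratio of 0.682 [0.667, 0.697], just inside the limit of 0.667. G6pc (chromosome 11, 101367561 to 101377903, plus strand), the glucose-6-phosphatase that frees glucose for export, stood at 710 and 318 CPM, a ratio of 0.448 [0.431, 0.465]. In all, 1 of the 10 genes (Gls2) was called higher, where 10.3% of 11550 genes were, and 1 (G6pc) was called lower, where 8.42% were. The member count is thus near the background on both sides, with a median log2 ratio of 0.06 beside 0.00 over all genes.

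**Figure D1:**
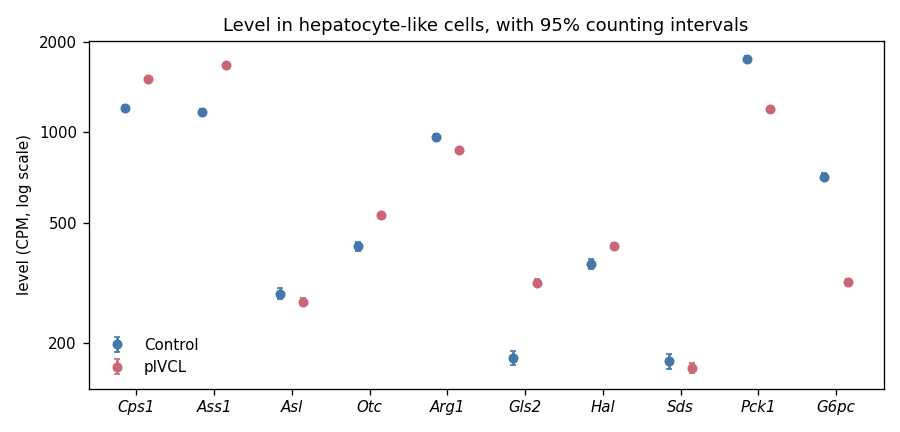
Level of each of the 10 genes in hepatocyte-like cells, in CPM on a log axis, for the Control and the pIVCL library, with bars for exact 95% counting intervals of 1 library each. G6pc stood at 710 CPM in Control and 318 CPM in pIVCL, and Gls2 at 178 and 316 CPM, while the intervals of Sds (173 and 165 CPM) overlap.

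In Control the order was Pck1, Cps1, Ass1, Arg1, G6pc, Otc, Hal, Asl, Gls2 and Sds, in which Cps1 (1207 CPM) and Ass1 (1171 CPM), and Gls2 (178 CPM) and Sds (173 CPM), were neighbours with overlapping intervals. In pIVCL the order was Ass1, Cps1, Pck1, Arg1, Otc, Hal, G6pc, Gls2, Asl and Sds, in which G6pc (318 CPM) and Gls2 (316 CPM) could not be separated. G6pc thus lay above Otc and Hal in Control and below both in pIVCL.

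Each cell was then placed in the lobule by its portal share, the UMIs of 12 portal genes (such as Cyp2f2) over those of the portal and 12 central genes (such as Cyp2e1), none of them a gene described here. Cells with at least 3 Glul UMIs and 1000 Glul CPM formed the Glul layer, with 46 Control and 14 pIVCL cells. The others with at least 10 zone UMIs were divided into 3 zones of equal size within each library, with 106 central, 106 middle and 105 portal cells in Control and 353, 352 and 352 in pIVCL. The remaining 114 Control and 798 pIVCL cells, with a median of 708.5 and 989.5 UMIs, got no zone. A zone is a range and not a cell type: 9.46% and 10.4% of the zoned Control cells, and 10.8% and 17.3% of the pIVCL cells, lay within 0.05 of the lower or upper limit.

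Except for G6pc in Control, each of the 10 genes had a portal level above its central level by more than counting error, and the ratios ran from 1.39 to 57.5. Of the 10 genes, 7 were called higher in the portal zone of Control, where 3.17% of 8456 genes were, and 9 in pIVCL, where 2.84% of 10326 genes were, and 0 were called lower, where 13.2% and 7.64% were. The median log2 ratio of the 10 was 0.86 in Control and 0.99 in pIVCL, beside -0.12 and -0.05 over all genes. Otc fell short of the limit in both libraries, and Cps1 and G6pc fell short in Control.

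The amino acid genes had the steepest portal side. Sds went from 8.42 CPM in the central zone through 119 CPM in the middle to 484 CPM in the portal zone of Control, a portal over central ratio of 57.5 [36.2, 97.4] that rests on 18 central UMIs. In pIVCL it went from 18.1 through 174 to 306 CPM, a ratio of 16.9 [14.0, 20.5]. Hal went from 32.8 through 403 to 886 CPM in Control (ratio 27.1 [21.3, 34.9]) and from 105 through 461 to 741 CPM in pIVCL (7.08 [6.53, 7.69]). Gls2 went from 45.4 through 223 to 376 CPM in Control (8.28 [6.70, 10.3]) and from 132 through 370 to 488 CPM in pIVCL (3.68 [3.41, 3.98]). In each library these 3 genes were the steepest of the 10, in the order Sds, Hal and Gls2. In endothelial-like cells, which should lack them, Sds stood at 19.5 CPM in Control and 23.7 CPM in pIVCL and Hal at 38.4 and 95.6 CPM. The central levels of Sds, and that of Hal in Control, lie below these values and that of Hal in pIVCL is near them. By CPM they cannot be told from background, and the folds of both genes rest on that denominator. The central cells were deeper, with medians of 17494 and 20697 UMIs against 6708.5 and 3329. Without thinning, a Hal UMI was seen in 34.0% and 57.8% of them, against 17.9% and 27.4% of endothelial-like cells. For Sds the shares were 14.2% and 22.4%, against 10.1% and 8.41%. Cells of unlike depth may hold unlike shares of background, so what part of these levels is background was not tested.

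The urea cycle enzymes had a shallow slope outside the Glul layer. Asl was the steepest of them, with 206, 347 and 462 CPM in the central, middle and portal zones of Control (ratio 2.24 [2.00, 2.52]) and 167, 287 and 361 CPM in pIVCL (2.16 [2.00, 2.32]). Ass1 stood at 925, 1442 and 1747 CPM in Control (1.89 [1.79, 2.00]) and 1154, 1784 and 2098 CPM in pIVCL (1.82 [1.77, 1.87]). Arg1 stood at 818, 1209 and 1437 CPM in Control (1.76 [1.65, 1.87]) and 579, 969 and 1111 CPM in pIVCL (1.92 [1.84, 2.00]). Within these zones, the slopes of the 3 cytosolic enzymes had overlapping intervals in the 2 libraries.

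The mitochondrial enzymes were flatter. Cps1 stood at 1152, 1614 and 1605 CPM in the zones of Control (ratio 1.39 [1.32, 1.47]) and 1195, 1731 and 1852 CPM in pIVCL (1.55 [1.5, 1.60]), so that in Control the middle zone was already at the portal level. Otc stood at 375, 488 and 534 CPM in Control and at 405, 566 and 573 CPM in pIVCL, a ratio of 1.42 in both ([1.30, 1.56] and [1.34, 1.49]).

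The glucose genes differed from each other and between the libraries. Pck1 stood at 1464, 1849 and 2578 CPM in Control (ratio 1.76 [1.68, 1.84]) and at 656, 1129 and 1852 CPM in pIVCL (2.82 [2.72, 2.93]). G6pc was flat in Control, at 739, 785 and 777 CPM (1.05 [0.979, 1.13]), and sloped in pIVCL, at 223, 334 and 453 CPM (2.03 [1.90, 2.16]). These zones end at different portal shares in the libraries, and the slopes were therefore also read at limits common to both. There the ratios of Control and pIVCL came close for Gls2 (4.98 [4.26, 5.83] and 5.12 [4.65, 5.64]) and Hal (13.8 [11.8, 16.2] and 11.8 [10.6, 13.3]), and their intervals overlapped for Sds too (49.1 [33.3, 75.5] and 28.2 [21.7, 37.3]). Pck1 (1.68 and 3.18) and G6pc (1.05 and 2.25) kept the gap, and Arg1 (1.59 and 2.21) and Cps1 (1.31 and 1.75) were steeper in pIVCL. Ass1, Asl and Otc ran the same way. From the central to the portal zone, Ass1 went from 989 to 1740 CPM in Control and from 1041 to 2132 CPM in pIVCL. Asl went from 226 to 455 and from 150 to 371 CPM, and Otc from 392 to 533 and from 372 to 576 CPM. A difference between ratios of 1 library each was not tested.

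The Glul layer lacked most of the urea cycle RNA. Cps1 stood at 82.5 CPM there in Control (95 UMIs) against 1152 CPM in the central zone, a ratio of 0.0716 [0.0577, 0.0879], and at 144 CPM in pIVCL (19 UMIs) against 1195 CPM (0.120 [0.0724, 0.188]). Arg1 was as low, at 46.0 CPM in Control (0.0563 [0.0420, 0.0739]) and 37.9 CPM in pIVCL (0.0654 [0.0212, 0.153]). Ass1 stood at 128 and 204 CPM, ratios of 0.138 and 0.177. Asl (0.316 and 0.588 [0.312, 1.01]) and Otc (0.444 and 0.487) kept more of their level. The step into the Glul layer was thus larger for Cps1, Ass1 and Arg1 than the whole slope from the central to the portal zone. In Control, cluster 12 led both the layer and the central zone (65.2% and 65.1% of cells). In pIVCL, shallow cluster 5 led the layer (42.9%) and deep cluster 3 the central zone (67.1%). The step in pIVCL is therefore mixed with a difference of clusters.

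The glucose genes were lower in the Glul layer by less than Cps1, Ass1 and Arg1 were. Pck1 stood at 796 CPM in Control and 303 CPM in pIVCL, ratios of 0.544 [0.505, 0.585] and 0.461 [0.329, 0.629] to the central zone. G6pc stood at 500 and 174 CPM (0.677 [0.614, 0.745] and 0.780 [0.493, 1.17]). The amino acid genes, already low in the central zone, had 6 Gls2, 14 Hal and 6 Sds UMIs in the Control layer. Sds had 0 UMIs in the pIVCL layer, which allows up to 22.7 CPM at 3 UMIs. In all, 8 of the 10 genes were called lower in the Control layer, where 4.77% of 8067 genes were, and 7 in the pIVCL layer, where 1.68% of 9518 genes were. The 14 pIVCL cells of the layer had a median of 2230.5 UMIs, against 32535.5 in the 46 Control cells, and their precision is low.

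**Figure D2:**
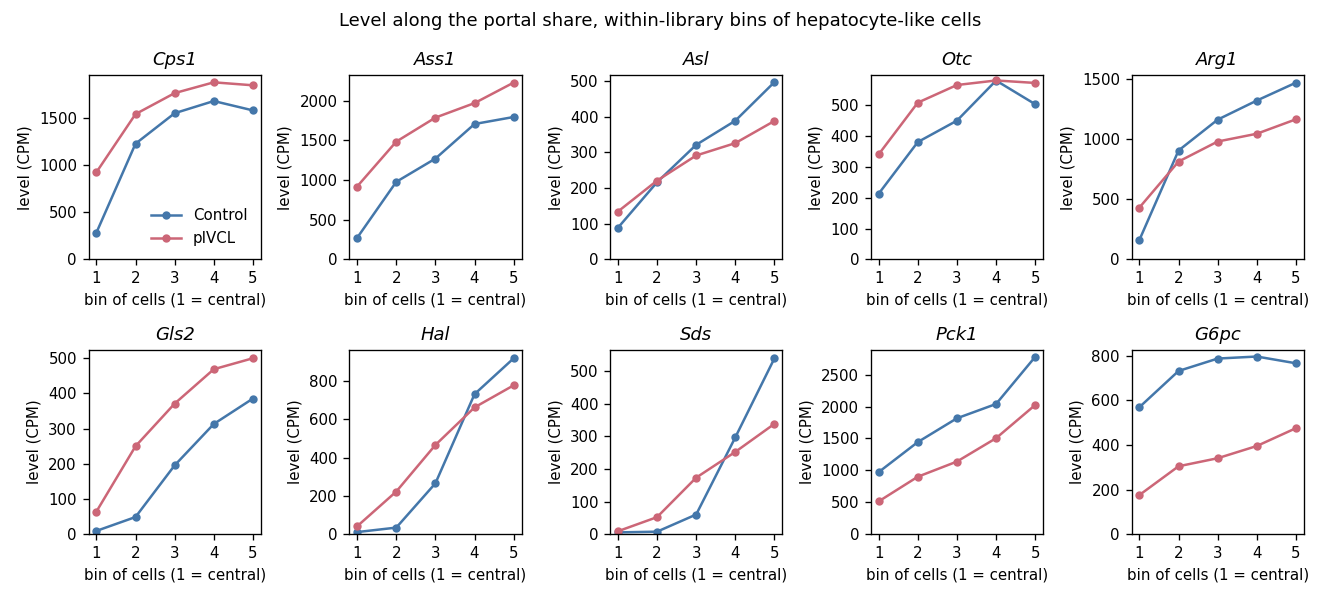
Level in CPM (vertical axes from 0, each gene on its own scale) of the 10 genes over 5 bins of the zoned hepatocyte-like cells of each library, ordered by portal share from 1 (central, Glul layer included) to 5 (portal), in the Control and the pIVCL library. Sds, Hal and Gls2 start near 0 on the central side, Cps1 and Arg1 have their widest step between bins 1 and 2, and G6pc lies lower in pIVCL in every bin, though bins of the same number cover different portal shares.

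With zoned cells ranked by portal share into 5 bins of equal size, Glul layer included, the shapes were resolved further. In Control, Sds stood at 5.70, 7.94, 60.4, 297 and 538 CPM from bin 1 (central) to bin 5 (portal), and Hal at 11.4, 34.8, 266, 733 and 920 CPM. In pIVCL, Sds stood at 9.23, 52.4, 173, 252 and 338 CPM, and Hal at 41.6, 223, 467, 663 and 779 CPM. The bins are ranked within each library and cover different portal shares, so they are not compared between libraries. In the central zone at common limits, Hal stood at 63.8 and 63.7 CPM and Sds at 9.53 and 11.2 CPM in Control and pIVCL. Cps1 went from 284 to 1229 CPM between bins 1 and 2 of Control and reached its highest level, 1683 CPM, in bin 4. G6pc in Control lay between 731 and 796 CPM in bins 2 to 5, and in pIVCL it went from 176 to 475 CPM.

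The bins also gave the genes whose pattern was most like that of the urea cycle. Across the 10 groups (5 bins in each of 2 libraries) and 4296 genes, the Pearson correlation of log2 levels with the mean of the 5 enzymes was highest for Ddah1 (0.983), which breaks down methylated arginines, Aspg (0.977), an asparaginase, Uox (0.971), the urate oxidase, Itih3 (0.967), a secreted protease inhibitor chain, and Amdhd1 (0.964), of histidine breakdown. Among the 10 genes, Cps1 (0.980), Ass1 (0.979) and Arg1 (0.978) were closest to the mean they are part of, while Gls2 reached 0.927, Hal 0.891, Sds 0.801, Pck1 0.619 and G6pc 0.181. The groups share 2 libraries and 1 ordering of cells, so these values describe a likeness of shape.

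Other genes of nitrogen and glucose handling were read from lists. Of 13 genes that supply the urea cycle (carriers, aspartate and ammonia sources), 3 were called higher in the portal zone of Control and 1 lower, and 3 and 0 in pIVCL. Got1, the cytosolic aspartate aminotransferase, stood at 236 and 378 CPM in the central and portal zones of Control and at 165 and 375 CPM in pIVCL. Slc7a2, an arginine and ornithine carrier, stood at 194 and 295 CPM and at 131 and 304 CPM. The mitochondrial carbonic anhydrase Car5a, which supplies Cps1 with bicarbonate, ran the other way in Control, from 77.7 to 44.2 CPM. Most of the supply genes thus had no portal slope past the limit.

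Of 12 measured genes of histidine, serine and glycine breakdown, 5 were called higher portally in Control and 6 in pIVCL, and 0 lower. The further histidine enzymes followed Hal, with Amdhd1 at 54.8 and 247 CPM in the central and portal zones of Control and Uroc1 at 156 and 406 CPM. Gldc, of the glycine cleavage system, stood at 46.8 and 197 CPM. Of the genes breaking down other amino acids, 2 of 21 were called higher and 1 lower in Control, and 8 of 22 higher in pIVCL, led there by Cth (324 to 709 CPM), Tat (453 to 805 CPM) and Bhmt (1462 to 2559 CPM). Of the other gluconeogenic genes, 5 of 6 measured were called higher portally in Control and 4 of 7 in pIVCL, with Fbp1, the fructose bisphosphatase, at 402 and 1125 CPM in Control and 530 and 1143 CPM in pIVCL. Slc37a4, the carrier that delivers the substrate of G6pc, stood at 59.0 and 111 CPM in Control, where G6pc itself was flat.

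The genes of ammonia capture ran opposite. All 3 measured in Control and all 4 in pIVCL were called lower in the portal zone, led by Oat, the ornithine aminotransferase, at 889 and 18.4 CPM in Control and 310 and 16.4 CPM in pIVCL.

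The comparison of libraries was next read at the same place in the lobule. The zones drawn within libraries do not cover the same portal shares: the central zone ended at 0.182 in Control and 0.351 in pIVCL. The zones were therefore also drawn at limits common to both libraries (a choice made after the data were seen), which gave 132 central, 68 middle and 117 portal cells in Control and 267, 476 and 314 in pIVCL. At these common limits G6pc was lower in pIVCL in all 3 zones, and Pck1 in the central and middle ones. The 3 amino acid genes had been called higher in pIVCL in the central zones drawn within libraries (ratios of 2.15 for Sds, 2.92 for Gls2 and 3.19 for Hal, where 11% of genes were called higher), and were called in no zone at common limits.

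G6pc stood at 746 CPM in Control and 199 CPM in pIVCL in the common central zone, a pIVCL over Control ratio of 0.266 [0.247, 0.287]. The ratio was 0.441 [0.407, 0.479] in the middle zone (780 and 344 CPM) and 0.572 [0.537, 0.610] in the portal zone (783 and 448 CPM). Pck1 stood at 1511 and 590 CPM in the central zone (0.390 [0.372, 0.409]), at 1898 and 1130 CPM in the middle (0.595 [0.566, 0.626]) and at 2541 and 1876 CPM in the portal zone (0.738 [0.714, 0.763]). For both genes the gap was widest on the central side. In the Glul layer the ratios were 0.348 for G6pc and 0.380 for Pck1, but the layers of the libraries were unlike. The main cluster was deep cluster 12 in Control (65.2% of cells) and shallow cluster 5 in pIVCL (42.9%). Glul stood at 9866 and 2332 CPM in them, so these ratios do not compare like cells.

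Arg1 and Asl also lay lower in pIVCL at common limits, and past the limit only centrally. Arg1 stood at 887 and 504 CPM in the central zone (0.568 [0.537, 0.600]), with ratios of 0.761 and 0.788 in the middle and portal zones. Asl stood at 226 and 150 CPM (0.663 [0.596, 0.738]), with ratios of 0.748 and 0.814. Cps1 (0.864, 1.02 and 1.16), Ass1 (1.05, 1.14 and 1.23) and Otc (0.948, 1.11 and 1.08) were within the limit in each zone. The ratios of Asl and Arg1, the last 2 enzymes of the cycle, thus lay below those of the first 3 in each zone.

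Gls2 was at 74.0 and 96.9 CPM in the central zone (1.31 [1.11, 1.55]), 240 and 355 CPM in the middle (1.48 [1.30, 1.69]) and 368 and 496 CPM in the portal zone (1.35 [1.24, 1.46]). It was higher in pIVCL in each zone, and below the limit in each. Hal (0.999, 0.931 and 0.859) and Sds (1.17, 1.00 and 0.673) were within it. At common limits 4, 2 and 1 of the 10 genes were called lower in the central, middle and portal zones, where 9.29%, 5.72% and 5.29% of all genes were, and 0 were called higher, where 11.9%, 8.67% and 9.89% were.

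**Figure D3:**
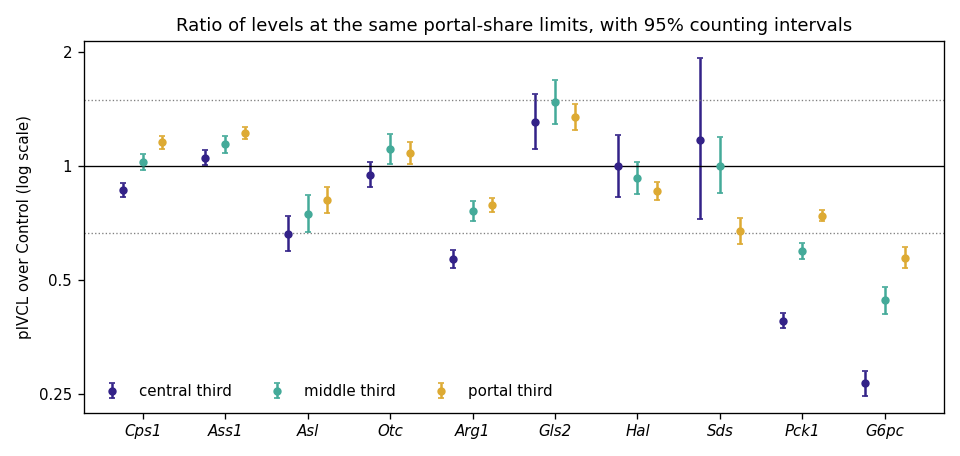
Ratio of levels, pIVCL over Control, on a log axis for each of the 10 genes in the central, middle and portal zone at portal-share limits common to both libraries, with bars for exact 95% counting intervals and dotted lines at 1.5 and 1 over 1.5. Pck1 and G6pc lie lowest, at 0.390 and 0.266 in the central zone, and Hal and Sds lie at 0.999 and 1.17 there.

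The libraries also differ in depth, so the comparison was repeated within bins of UMIs per cell. G6pc was called lower in pIVCL in all 5 bins, where 6.03%, 4.99%, 7.16%, 11.5% and 9.15% of genes were. From the shallowest bin, its levels in Control and pIVCL were 591 and 243 CPM in cells from 500 UMIs, 432 and 235 CPM from 1000, 1189 and 544 CPM from 2000, 1518 and 483 CPM from 5000, and 658 and 303 CPM from 10000 UMIs up. The ratios lay between 0.318 and 0.544. Pck1 did not hold through the bins. Its level was 1917 and 1910 CPM in the shallowest bin (ratio 0.996) and 1645 and 1065 CPM in the deepest (0.648). The ratio of Gls2 lay between 1.28 and 1.81, with intervals that include 1 in 3 of the bins. G6pc was the only gene of the 10 called in the same direction in every bin.

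Between the deep clusters alone, cluster 3 of pIVCL over cluster 12 of Control, G6pc stood at 652 and 304 CPM in Control and pIVCL (0.466), Pck1 at 1614 and 1122 CPM (0.695), Gls2 at 171 and 321 CPM (1.88) and Ass1 at 1091 and 1645 CPM (1.51). Of the 10 genes, 2 were called higher, where 8.78% of 10805 genes were, and 1 lower, where 7.52% were. Pck1 had a ratio of 0.973 in hepatocytes set per cell without a mitochondrial limit (a choice made after the data were seen), so its lower level in pIVCL depends on whether barcodes over 25% mitochondrial UMIs are left out. With that limit kept, the ratio of Pck1 in cells set the same way was 0.688. The ratio of G6pc without the limit was 0.543.

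Several genes known to respond to hormones were lower along with G6pc. The list counts that follow stand beside the 10.3% of all genes called higher and the 8.42% called lower in this comparison. Of 16 genes of hormone response and liver transcription factors, 8 were called lower in pIVCL and 0 higher (median log2 ratio -0.42). Igfbp1, a target of glucagon and stress signals that insulin lowers, stood at 555 CPM in Control and 144 CPM in pIVCL (ratio 0.260 [0.247, 0.273]). Irs2, an insulin receptor substrate, stood at 63.2 and 25.7 CPM, Ppara, the fasting lipid regulator, at 111 and 52.7 CPM, and Creb3l3 at 288 and 177 CPM. The other 4 called, named after their values were seen, were Fkbp5, Per1, Tsc22d3 and Sgk1, all known to be raised by glucocorticoids. Gcgr, the glucagon receptor (also named after its values were seen), stood at 123 and 88.7 CPM (0.721), within the limit. Whether hormones had a part in these levels, or in that of G6pc, was not tested.

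Of the other gluconeogenic genes, none was called lower in the whole class, and 1 of 7, Pck2, was called higher at 1.10 and 2.78 CPM (named after its values were seen). Fbp1 stood at 669 and 898 CPM (1.34) and Slc37a4 at 79.7 and 58.4 CPM (0.732). In the fed-state list 2 of 10 were called higher, Scd1, the stearoyl-CoA desaturase, at 984 and 3199 CPM and Elovl6 at 46.7 and 87.1 CPM. Counts of 1 or 2 genes are close to that background share and are not read as a result about a list. Of the supply genes 2 of 13 were called higher, Fh1, the fumarase that takes up the product of Asl, at 51.3 and 99.2 CPM and Mdh2 at 121 and 187 CPM. Of the genes of other amino acids, Cth (268 and 523 CPM) and Bhmt (1203 and 2154 CPM) were the 2 of 22 called higher, and among 12 measured genes of histidine, serine and glycine breakdown 0 were called in either direction. No gene of these 5 lists was called lower in pIVCL.

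Ammonia capture differed most between the libraries. All 4 genes were called lower in pIVCL, with Glul at 1611 and 48.5 CPM, Slc1a2, a glutamate carrier, at 339 and 5.33 CPM and Oat at 1046 and 159 CPM. The Glul layer held 46 of 477 Control cells and 14 of 1869 pIVCL cells, and fewer such cells and less RNA per cell cannot be told apart in a summed level. Without that layer, 2 of the 10 genes (G6pc at 0.425 and Pck1 at 0.622) were called lower. Acute-phase genes were higher in pIVCL, with 6 of 9 called, led by Lcn2 (17.9 and 61.9 CPM) and Hpx (2205 and 4479 CPM). Of 11 measured genes of the dissociation stress list, 1 was called higher, Hsp90aa1 at 198 and 318 CPM. Their part in the result for G6pc was not tested.

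Promoter sequences of Pck1 and G6pc are shown because both glucose genes were called lower in pIVCL in the central and middle zones at common limits and, as described next, higher in cluster 14. In the whole class only G6pc was called lower. Both are from RefSeq on GRCm38.p6, where 5 of the 10 genes were listed, and both end where GENCODE starts the gene. The capitals mark 8-base words related to TGACGTCA, the cyclic AMP response element, with TTACGTCA in Pck1 and TTACGTAA in G6pc.
Pck1 (chr2:173152823-173153047, plus strand): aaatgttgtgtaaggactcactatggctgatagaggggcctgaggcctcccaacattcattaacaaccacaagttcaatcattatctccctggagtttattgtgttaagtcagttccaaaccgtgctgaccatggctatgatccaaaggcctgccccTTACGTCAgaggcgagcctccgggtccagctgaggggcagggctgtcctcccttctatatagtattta
G6pc (chr11:101367466-101367561, plus strand): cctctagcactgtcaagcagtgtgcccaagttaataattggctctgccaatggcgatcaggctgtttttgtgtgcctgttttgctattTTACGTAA
TTACGTCA lies 93 to 86 bases before the RefSeq start of Pck1, and overlaps the half-site TGACG of the other strand at -90 to -86. Searched on both strands over the 250 bases before the start, TTACGTCA was in 0.447% of 32851 promoters, TTACGTAA in 0.113% and TGACG in 17.8%. TTACGTAA lies 162 to 155 bases before the RefSeq start of G6pc. TGTTTGC, searched with it, was in the 250 bases of G6pc too, outside the stretch printed, and in 4.30% of promoters. The full palindrome TGACGTCA (1.55%) and TGTTTAC (3.17%) were in neither. A match describes letters in this window and says nothing of binding in these cells.

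Shallow cells did not carry a faint copy of the deep cells' mix. Compared with cells of at least 10000 UMIs, cells under 2000 UMIs had higher levels of Sds (399 against 151 CPM in Control, ratio 2.65, and 352 against 137 CPM in pIVCL, 2.56) and Otc (880 against 400 CPM, 2.20, and 1032 against 481 CPM, 2.15). Ass1 was higher too (2.16 and 1.52), and so were Asl (1.74 and 1.97) and Arg1 (1.53 and 1.54). Cps1 ran the other way, at 1010 against 1217 CPM in Control (0.830) and 907 against 1571 CPM in pIVCL (0.577), and G6pc lay at 0.780 and 0.785. Of the 10 genes, 5 were called higher in Control, where 13.7% of 9514 genes were, and 7 in pIVCL, where 21.2% of 10775 genes were. Cps1 in pIVCL was the only one called lower, where 6.82% were (0 in Control, where 2.39% were).

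The shallow cells also held fewer mitochondrial UMIs, 4.43% against 19.6% of the sum in Control and 2.46% against 18.6% in pIVCL. Without mitochondrial UMIs every log2 ratio shifts by -0.25 and -0.26, and 3 genes were then called higher in each library. Otc in both libraries, Ass1 in Control and Asl in pIVCL were called higher under all 4 other settings tried. Among cells of at most 10% mitochondrial UMIs, Cps1 in pIVCL turned to 1.37, a value that rests on 22 deep cells against 686 in the comparison above.

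The shallow cells were mostly of 3 clusters with different mixes of the 10 genes. Cluster 4, whose median cell held 767.5 (Control) and 804.5 (pIVCL) UMIs, was close to the deep cells: only Sds in Control (1.55), and Sds (1.66) and Otc (1.73) in pIVCL, were called higher against the deep cluster of the library, where 4.79% and 12.4% of genes were.

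Cluster 5 was low in Cps1 and G6pc and not in the other 8 genes. Its median cell held 2218 UMIs in Control and 1661 in pIVCL, with 0.528% and 0.914% mitochondrial UMIs, and the nuclear RNA Malat1 (chosen, like Neat1, after its values were seen) stood at 144 and 208 CPM, against 4641 and 2055 CPM in the deep clusters. Cps1 stood at 282 CPM in Control against 1234 CPM in cluster 12 (ratio 0.228) and 391 CPM in pIVCL against 1659 CPM in cluster 3 (0.236). G6pc stood at 204 and 79.6 CPM (0.313 and 0.262). Ass1 stood at 4651 and 2708 CPM (4.26 and 1.65), Otc at 1283 and 1095 CPM (3.20 and 2.26) and Sds at 719 and 415 CPM (5.26 and 2.96). Enzymes of 1 cycle thus lay on opposite sides of the deep cells. Of the 10 genes, 7 were called higher and 2 lower in Control, where 16.1% and 8.68% of genes were, and 4 and 2 in pIVCL, where 21.7% and 18.1% were. Beside the same shares, 2 of 10 hepatocyte markers were called higher and 5 lower in Control, and 0 and 6 in pIVCL. Alb stood at 27138 CPM in cluster 5 of Control and 16682.5 CPM in that of pIVCL, against 57272 and 52194 CPM in the deep clusters.

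Cluster 14 had a different mix, in which G6pc was high and Ass1 low, while Asl and Sds were high as in cluster 5. Its median cell held 5062.5 and 3307 UMIs, and Malat1 stood at 124057 and 94351 CPM, with the nuclear RNA Neat1 at 6755 and 8687 CPM. G6pc stood at 2840 CPM in Control (4.36 times cluster 12) and 2236 CPM in pIVCL (7.36 times cluster 3). Pck1 stood at 5741 and 6006 CPM (3.56 and 5.35 times). Asl stood at 1239 and 772 CPM (5.11 and 3.00), Sds at 547 and 617 CPM (4.00 and 4.40), and Arg1 at 2445 and 2264 CPM (2.78 and 2.70). Ass1 stood at 630 and 712 CPM (0.577 and 0.433), and Otc stood at 214 and 328 CPM (0.533 and 0.678). In each library 6 of the 10 genes were called higher and 2 lower, where 25.5% and 13.5% of genes were in Control and 33.1% and 9.38% in pIVCL. Beside the same shares, 1 of 10 hepatocyte markers was called higher and 4 lower in Control, and 0 and 6 in pIVCL, with Alb at 36628 and 20230 CPM. Genes of the dissociation stress list were also high in these cells, with 6 of 11 called higher in Control and 8 of 11 in pIVCL, led by Jun (127 against 1481 CPM in Control, 106 against 1619 CPM in pIVCL). Their part in the levels of Pck1 and G6pc was not tested.

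**Figure D4:**
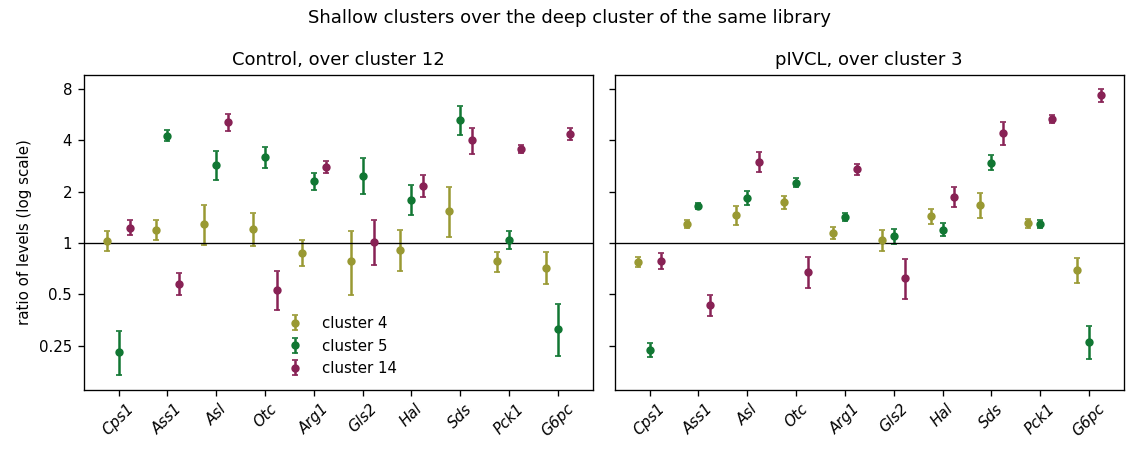
Ratio of levels, on a log axis, of clusters 4, 5 and 14 over the deep cluster of the same library (12 in Control, 3 in pIVCL) for each of the 10 genes, with bars for exact 95% counting intervals. Cps1 and G6pc lie lowest in cluster 5, and Pck1 and G6pc lie at 3.56 to 7.36 in cluster 14, with Ass1 and Otc under 1.

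Inside cluster 14 the gap in G6pc between the libraries was small, 2840 CPM in Control and 2236 CPM in pIVCL (ratio 0.787), and Pck1 had a ratio of 1.05. Inside cluster 5, G6pc had a ratio of 0.390, and inside cluster 4, 0.449. Leaving out clusters 4, 5 and 14 (a choice made after the data were seen) left the G6pc ratio of the whole class at 0.475, and leaving out cluster 14 alone at 0.459. Cycling cells (cluster 17, 90 cells in pIVCL) had less Hal (160 against 423 CPM, 0.378), Cps1 (873 against 1659 CPM, 0.526), Asl (142 against 257 CPM, 0.552) and Pck1 (682 against 1122 CPM, 0.608) than cluster 3, and the same G6pc (305 and 304 CPM). These 4 were the ones called lower, where 4.85% of 10828 genes were.

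Transcript length moved with the clusters. Across 1529 genes in Control and 3215 in pIVCL, the log2 ratio of cluster 5 over the deep cluster had a Pearson correlation of -0.551 and -0.517 with the length of the transcript, and that of cluster 14 one of 0.458 and 0.510. Genes are not independent replicates, and the values are a description. Cps1 (5555 bases) and Hal (5319 bases) are the longest of the 10, and the others are of 1288 (Sds) to 2661 bases (Pck1). In cluster 5, the percentile of Cps1 among these genes was 4.05 in Control and 0.591 in pIVCL. That of Hal, of nearly the same length, was 71.2 and 54.6, and that of G6pc, of 2414 bases, 9.42 and 2.30. In cluster 5 of each library, the shortest of the 10 genes, Sds, had the highest ratio to the deep cluster, and the longest, Cps1, the lowest. G6pc was an exception, as it lay below the longer Gls2, Pck1 and Hal in both libraries. Arg1 (1477 bases) was another, below the longer Ass1, Asl and Otc in both, and Hal lay above the shorter Pck1 in Control. In cluster 5 the 10 genes thus followed the order of their lengths only in part. How much of their mix goes with length was not tested.

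Among deep cells, each thinned to 10000 UMIs (218 Control and 686 pIVCL cells), nearly every cell held Pck1, with 0.917% and 2.92% of cells at 0. Sds was absent from 52.3% and 44% of cells, with a median of 0 and 1 UMIs and a highest of 22 and 11. The variance over the mean was highest for Pck1 (8.09 in Control and 5.93 in pIVCL) and lowest for Otc (1.67 and 1.42), and 1 is the value of counting alone. G6pc had 3.43 and 1.79, with 2.75% of Control cells and 12.8% of pIVCL cells at 0. This measure grows with the level, so it does not rank the genes by evenness.

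Over the same cells, Pearson correlations were taken on the log2 of counts plus 1. The highest between 2 of the 10 genes in Control was that of Cps1 and Arg1, 0.845, followed by Cps1 and Ass1 at 0.793. In pIVCL these stood at 0.639 and 0.643, and Ass1 and Arg1 at 0.676. Hal had a correlation of 0.877 and 0.743 with the portal gene Cyp2f2. G6pc correlated most with Pck1 (0.524 and 0.505) and little with Cyp2f2 in Control (0.190). By Spearman rank the order in Control differed, with Hal and Sds highest at 0.784, Cps1 and Arg1 at 0.632 and Cps1 and Ass1 at 0.524. Cells of the Glul layer, low in Cps1, Ass1 and Arg1, were kept in both measures. The cells of a library share its free RNA and its zones.

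After thinning each cell to 1000 UMIs, hepatocyte-like cells held a mean of 2.50 of the 5 urea cycle enzymes in Control (383 cells) and 2.83 in pIVCL (1437 cells). The mean was 2.33, 2.79 and 3.05 in the central, middle and portal zones of Control and 2.28, 3.00 and 3.16 in pIVCL, against 0.762 and 0.917 in the Glul layer. In the Glul layer of Control, 54.8% of cells (23 of 42) held none of the 5, against 7.69% in the central zone. A cell of the Control layer held a Pck1 UMI in 61.9% of cases.

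Outside hepatocytes, all 10 genes were found in every class of at least 30 cells in each library. Their median level was 10.7% of the hepatocyte-like level in endothelial-like cells of Control (1210 cells) and 13.7% in those of pIVCL (678 cells). B cell-like cells held 17.9% and 32.2% and Kupffer-like cells 11% and 32.8%. Erythroid-like cells of pIVCL held 66.5%, with a median of 917 UMIs per cell. None of the 10 genes exceeded its hepatocyte-like level in any class.

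**Figure D5:**
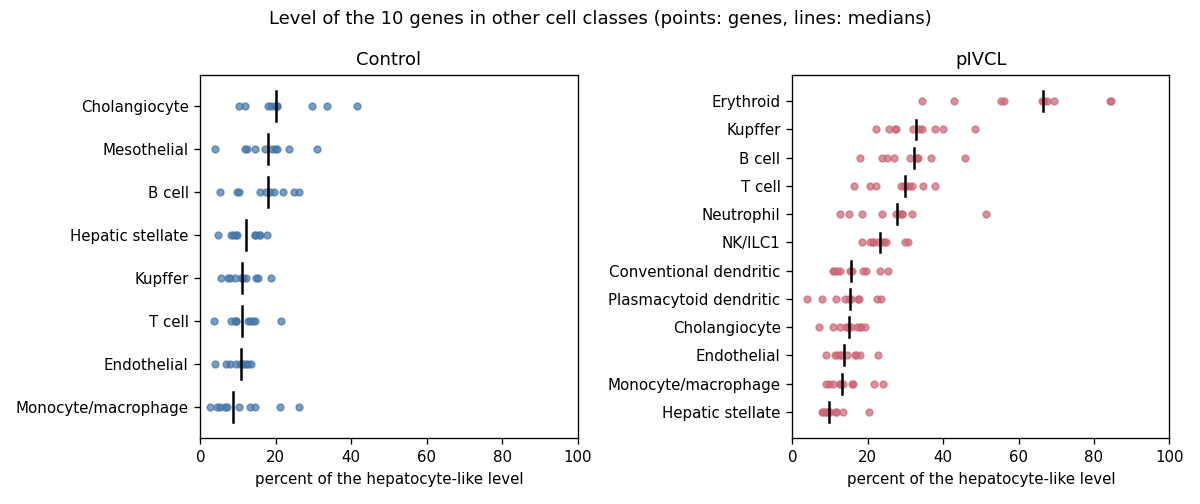
Level of the 10 genes in each other cell class as a percent of their level in hepatocyte-like cells, with 1 point per gene and a line at the median of the 10, in the Control and the pIVCL library. Medians run from 8.61% (monocyte/macrophage-like, Control) to 66.5% (erythroid-like, pIVCL).

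These classes are not known to run the urea cycle, and the shares of their cells with a UMI set the background for hepatocytes. After thinning to 1000 UMIs, Cps1 was seen in 58.7% of Control hepatocyte-like cells [53.6, 63.7] and 10.3% of endothelial-like cells [8.55, 12.3], and in 63.1% and 21.1% in pIVCL. Without thinning the shares were 81.6% and 36.6% in Control and 76.6% and 49.6% in pIVCL, at median depths of 7025 and 6708.5 UMIs and of 2668 and 3329 UMIs. G6pc was seen in 51.2% and 3.15% in Control and in 23.2% and 3.63% in pIVCL (72.7% and 14.8%, and 51.4% and 9.59%, without thinning). Cells under 1000 UMIs were left out, 94 and 164 in Control and 432 and 99 in pIVCL. Arg1, which some macrophages are known to make, was seen in 16.2% of Kupffer-like and 9.38% of monocyte/macrophage-like cells of Control and in 19.2% and 14.3% in pIVCL, beside 15.9% and 20.1% in B cell-like cells. By this measure Arg1 in macrophages was not above its level in B cells. In the Control Glul layer, the thinned shares of Cps1 (9.52%), Ass1 (21.4%) and Arg1 (14.3%) were near those of endothelial- and B cell-like cells (10.3% and 11.4% for Cps1). Without thinning the layer's shares were 56.5%, 84.8% and 47.8%, against 36.6%, 52.0% and 37.1% in endothelial-like cells. The layer's cells were deeper, with a median of 32535.5 UMIs against 6708.5, so whether these levels are background was not tested.

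Free RNA from 1 source would keep its genes in 1 ratio, and here the ratio was not that of whole hepatocytes. Per UMI of the secreted-protein genes Alb, Apoa1 and Ttr, endothelial-like cells of Control held 2.46 times as much Asl as hepatocyte-like cells, 2.32 times as much Ass1 and 2.21 times as much Otc, but 1.26 times as much Cps1 and 0.706 times as much G6pc. In pIVCL the endothelial-like values were 1.95 for Asl, 1.40 for Ass1, 1.81 for Otc, 1.42 for Cps1, 2.49 for Hal and 0.964 for G6pc. In all 12 other classes of pIVCL, G6pc lay below Asl and Otc on this measure. Whether the other classes make some of this RNA themselves was not tested. What share of shallow hepatocyte-like barcodes is free RNA was not tested either.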

How the data were processed

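The authors deposited UMI counts per gene and barcode for each of the 2 libraries, as whole numbers without normalization. Reads were processed with Cell Ranger 3.0.2 and mm10, per the submitters' processing notes; whether counting used strand is not stated there. Barcodes with at least 500 UMIs, 200 genes and at most 25% mitochondrial UMIs were kept, which removed 830 Control and 1554 pIVCL barcodes by the last limit. The doublet caller, at an expected 6%, marked 8 Control and 3 pIVCL barcodes (0.293% and 0.0551%), so it has not worked in either library and doublets remain.

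Cells were clustered with scanpy 1.11.5 and leidenalg 0.10.2 (30 components, 20 neighbours, resolution 1) without the genes described or their lists, giving 26 clusters, named by markers. Summed UMIs of each group of cells were given as CPM with exact Poisson intervals, ratios with exact binomial ones and shares with Clopper-Pearson ones, all at 95% and all for counting error only. Genes with fewer than 20 summed UMIs in a comparison were left out, and all 10 genes passed in each comparison whose calls are counted. The 10 genes, the gene lists, the zone genes and the rule for named genes (all 10 members, and list genes by size of ratio) were chosen with earlier results of these data known. Correlation with the urea cycle used log2 of CPM plus 20. The ratio step was tested on simulated data. Alternatives covered depth, the mitochondrial limit, scaling, the choice of hepatocytes, thinning and the zone limits.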

Additional observations from a re-analysis of the deposited data

Results flagged for a closer look

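Barcodes over the mitochondrial limit, which were used above only in the alternatives without that limit, also held the 10 genes. Of these barcodes, 371 in Control and 610 in pIVCL carried hepatocyte markers by a rule applied to each cell, with a median of 3163 and 5035.5 UMIs. Without mitochondrial UMIs, the 10 genes summed to 8661 CPM in the removed Control barcodes, beside 8880 CPM in the kept hepatocytes, and to 12278 CPM in the removed pIVCL barcodes, beside 8734 CPM. In the removed pIVCL barcodes Pck1 stood at 2250 CPM, beside 1440 CPM in kept cells, and G6pc at 655 CPM, beside 382 CPM. In the removed Control barcodes Pck1 stood at 1759 CPM, beside 2155 CPM in kept cells, and G6pc at 1083 CPM, beside 872 CPM.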

How the results depend on the processing

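No paired analysis was possible because each group holds 1 library. The lower G6pc of pIVCL passed the limit under all 13 alternatives (ratios of 0.267 to 0.543), and the higher Gls2 under 12 of 13 (1.47 to 2.27), with 1.47 at 10% mitochondrial UMIs or less. For the whole class, main counts of 1 higher and 1 lower became 2 lower in cells of at least 2000 UMIs and 2 lower without the Glul layer, 0 higher and 4 lower at 10% mitochondrial UMIs or less, 3 higher with hepatocytes set per cell, and 2 higher when scaled by hepatocyte markers. Set per cell without a mitochondrial limit (chosen after seeing the data), 5 were higher, or 3 with mitochondrial UMIs left out of CPM. Across zones, 9 genes were called higher in pIVCL under all 12 alternatives. In Control, cells of 10% mitochondrial UMIs or less turned Arg1 to 0.943 and Pck1 to 0.981. Thinning left Sds with no value in Control. Common zone limits (chosen after seeing the data) gave 0 higher and 4 lower in the central zone, with Hal at 0.999, 0 higher in the middle zone and 1 lower in the portal zone. Across depth in Control, 3 were higher and 1 lower at 10% mitochondrial UMIs or less (Asl 0.888, from 10 deep cells) and without mitochondrial UMIs, and 3 higher with cells set per cell. In pIVCL, 0 were lower at 10% or less (Cps1 1.37, from 22 deep cells), with cells set per cell, and without clusters 5 and 14 (chosen after seeing the data), while leaving out mitochondrial UMIs gave 3 higher and 2 lower. The cause of these shifts was not tested. The Glul layer of pIVCL rests on 14 cells.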
